A study of Mus musculus with 6 samples.

Results

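The genes described here are 35 mouse genes of the lysosome and of autophagy, among them Cd68, out of 54838 gene rows in the count table. They were taken by symbol from a list matched to the Ensembl identifiers through GENCODE M21, and all 35 were found, each as 1 row. The list, like the other gene lists used below, was drawn up with earlier results of these data known. RNA was sequenced from B cells that were flow sorted as naive cells from the spleens of 10 male mice aged 3 months, 9 days after immunisation with sheep red blood cells, in 2 experiments. Pooled cells were activated in culture over 5 days by interleukin 4 at 80 ng/ml together with anti-CD40 antibody at 5 µg/ml, which stand in for help from T cells. From day 3 to day 5 (48 hours) the medium held either DMSO, the solvent (3 libraries, A, B and C), or 1 µM Cpd10, which the labels call a foxo1 inhibitor (3 libraries, A, B and C). Cells of all animals were pooled before culture, so no library stands for an animal, and the labels do not say whether the letters are separate cultures. The p-values therefore measure variation among 3 libraries of pooled cells in each group, and that variation may be technical.

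Lysosomes are acidic organelles in which proteins, lipids and sugars are broken down. Autophagy delivers cytoplasm and organelles to them in vesicles whose membranes carry proteins of the ATG8 family. The transcription factors TFEB and TFE3 are known to bind E-boxes upstream of many lysosomal and autophagy genes, and FOXO factors are known to raise autophagy genes in other tissues such as muscle. In B cells, lysosomal proteases cut antigen and the invariant chain on the way to presentation by MHC class II.

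Libraries held 36873204 to 44859930 counts. DMSO A, DMSO C and Cpd10 A (library set 1) lay apart from DMSO B, Cpd10 B and Cpd10 C (library set 2) on the first principal component, which held 46.3% of the variance; the sets are not in the labels. A fit with the set as a term stands beside the fit by group alone, and because the set was taken from the same counts its p-values are exploratory. The B cell gene Cd79a, which encodes a signalling chain of the B cell receptor, was at 598 to 829 CPM (counts scaled by the normalised library size). The summed level of 8 B lineage markers was 5479, 5339 and 5744 CPM in DMSO A, B and C and 4571, 5727 and 5486 CPM in Cpd10 A, B and C, lowest in Cpd10 A. Of the 8, 6 were below 0 (median log2 fold change -0.16) and none passed by group in edgeR, with 2 at an unadjusted p under 0.05; Cd72, an inhibitory coreceptor of B cells, had -1.01 (edgeR's adjusted p = 0.0659) and was called lower with the set term (-1.05, adjusted p = 0.0193) and by DESeq2. Foxo1 itself was at 122 to 155 CPM in DMSO and 111 to 130 CPM in Cpd10 (edgeR's adjusted p = 0.711), which does not bear on inhibition of the protein.

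Cd68, which encodes a heavily glycosylated lysosomal membrane protein used as a macrophage marker, rose under Cpd10. It was at 15, 21.5 and 16.7 CPM in DMSO A, B and C and at 48.1, 47.6 and 50.2 CPM in Cpd10 A, B and C. The 3 Cpd10 libraries were all above the 3 DMSO libraries and close to each other. The means were 17.7 ± 3.36 CPM in DMSO and 48.6 ± 1.39 CPM in Cpd10 (SD, n = 3 each), a ratio of 2.74, and the log2 fold change was 1.46 (SE 0.15, edgeR's adjusted p = 0.0168). Cd68 lies on chromosome 11, 69664213 to 69666153, on the minus strand of GRCm38 (identifier ENSMUSG00000018774). It had the 14th smallest p of the 15136 genes tested and the 26th largest rise among the 48 genes that rose.

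The rise of Cd68 was present within both library sets. With the set as a term its log2 fold change was 1.40 (SE 0.12, edgeR's adjusted p = 2.56e-05). Within set 1 the difference on the log2(CPM + 2) scale was 1.49, and within set 2 it was 1.12. With 1 library left out, the log2 fold change ran from 1.36 to 1.62 by group alone. The edgeR's adjusted p was then 0.0811 without DMSO A, 0.0868 without DMSO C, 0.0754 without Cpd10 B and 0.128 without Cpd10 C, so the call was lost in these 4 fits, in which 0 to 5 genes of the whole table passed. With the set term as well, Cd68 passed in all 6 such fits.

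Other markers of macrophages and monocytes were mostly at or near 0. Of 17 such markers, only 4 had enough counts to be tested by edgeR, and none of these 4 passed by group (2, Adgre1 and Ly6c2, had an unadjusted p under 0.05, both lower in Cpd10); 5 had 0 counts in every library (C1qa, C1qb, Marco, Msr1 and Vsig4), and 15 stayed below 1 CPM in every library, among them Csf1r, the receptor for the growth factor CSF1, and Lyz2, which encodes lysozyme. Ly6c2 reached at most 1.90 CPM. Adgre1, which encodes the F4/80 antigen, was the most abundant, at 13.9, 21.1 and 20.5 CPM in DMSO and 8.77, 14.2 and 13.0 CPM in Cpd10 (-0.63 on the log2 scale, edgeR's adjusted p = 0.529, and -0.80 with the set term, adjusted p = 0.0252, which left the threshold without DMSO B or without any 1 of the Cpd10 libraries). The summed level of the other 16 markers was 1.52 to 2.87 CPM in DMSO and 1.33 to 1.83 CPM in Cpd10. Marker lists of other cells were not all near 0. Summed dendritic markers were at 70.7 to 103 CPM in DMSO and 60.7 to 88.6 CPM in Cpd10. T cell markers were at 219 to 426 and 173 to 270 CPM, and plasma cell markers at 2018 to 4359 and 2155 to 3086 CPM. Those of NK cells, neutrophils, and fibroblasts and endothelium reached at most 15.1, 4.73 and 20.7 CPM. Only 2 of the 7 T cell markers had enough counts to be tested by edgeR, so few genes carry that sum. None of the markers in these lists passed by group in edgeR. With the set term the plasma cell gene Irf4 was higher (0.49, edgeR's adjusted p = 0.0131). Thy1 (T cells), Eomes (NK cells) and Pecam1 (endothelium) were lower with it (-0.46, -2.87 and -1.43, edgeR's adjusted p = 0.0167, 0.00924 and 0.0356). The part of these lists in the result was not tested. In bulk RNA, a change in the number of cells of a type and a change in RNA per cell cannot be told apart.

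**Figure D1:**
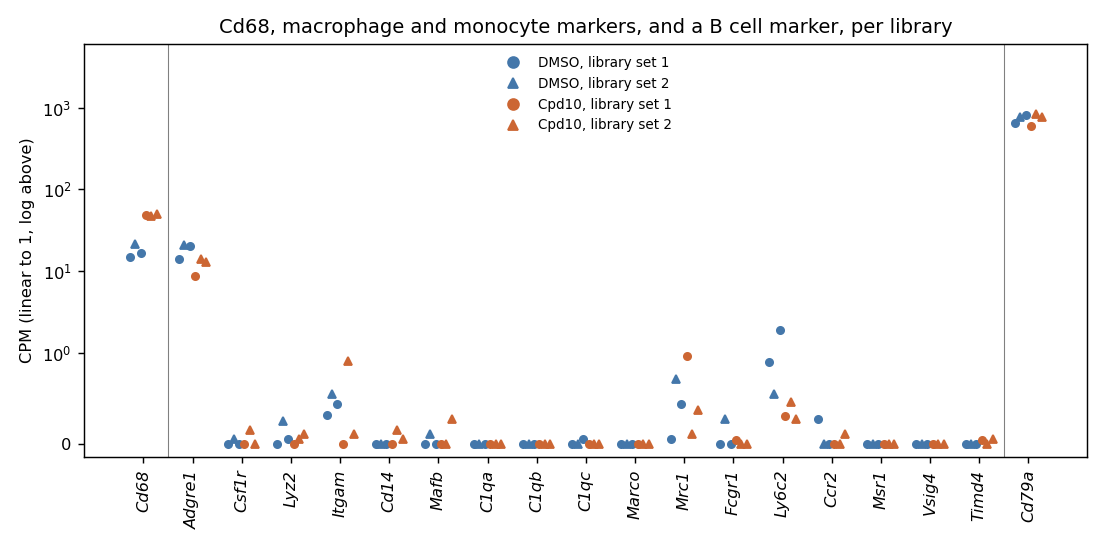
CPM of Cd68, of 17 macrophage and monocyte markers and of the B cell gene Cd79a in each of the 6 libraries; the axis is linear up to 1 CPM and logarithmic above, colour shows the group and shape the library set. Cd68 lies at 47.6 to 50.2 CPM in Cpd10 and at 15 to 21.5 CPM in DMSO, while Adgre1 is the only one of the 17 markers above 2 CPM.

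The genes beside Cd68 did not pass. Eif4a1, which encodes a translation initiation factor and ends 783 bases upstream on the same strand, differed by 0.033 on the log2 scale (SE 0.17, edgeR's adjusted p = 0.978). Mpdu1, a gene needed for the use of dolichol-linked sugars, 1571 bases downstream on the same strand, had -0.066 (SE 0.15, adjusted p = 0.950), and Senp3 and Fxr2, further off, had -0.072 and 0.020 (edgeR's adjusted p = 0.892 and 0.978). No annotated gene overlapped Cd68.

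The 250 bases upstream of the RefSeq start of Cd68 (GRCm38.p6, chr11:69666171-69666420, minus strand) are shown because Cd68 was the member that rose. Stretches upstream of a RefSeq start of 5 other members are shown as examples, out of 9 members that hold the E-box that Cd68 lacked. Capitals mark CACGTG, the E-box core, and sequences are given 5′ to 3′ on the strand of the gene.
Cd68: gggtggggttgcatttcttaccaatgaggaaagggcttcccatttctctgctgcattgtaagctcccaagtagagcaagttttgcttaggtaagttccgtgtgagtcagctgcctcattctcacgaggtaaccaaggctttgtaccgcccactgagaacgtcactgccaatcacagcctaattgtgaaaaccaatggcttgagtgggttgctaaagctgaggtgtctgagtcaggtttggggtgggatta
Lamp1: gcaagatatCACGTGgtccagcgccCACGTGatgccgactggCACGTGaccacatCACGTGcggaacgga
Mcoln1: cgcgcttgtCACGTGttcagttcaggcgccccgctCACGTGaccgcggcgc
Gla: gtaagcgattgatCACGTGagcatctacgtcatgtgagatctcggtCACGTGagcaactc
Ctsd: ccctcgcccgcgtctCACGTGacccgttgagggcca
Ctsa: gaacaatgagcaaactgtCACGTGatgcag

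These stretches lie at chr8:13159091-13159160 (plus strand) for Lamp1, chr8:3500439-3500489 (plus) for Mcoln1, chrX:134601186-134601245 (minus) for Gla, chr7:142387905-142387940 (minus) for Ctsd and chr2:164833743-164833772 (plus) for Ctsa. Ctsa has 2 RefSeq starts, and its stretch belongs to the later one. The window at its earlier start (chr2:164832622-164832921) holds no CACGTG. RefSeq windows from 250 bases before to 50 bases after a start were found by symbol for 29 members, some with several starts, and not for Npc1, Ctsb, Ctsh, Map1lc3a, Becn1 and Bnip3l. CACGTG, which reads the same on both strands, was in a window of 9 of the 29 (31%: Atg5, Atg7, Ctsa, Ctsd, Ctsl, Gaa, Gla, Lamp1 and Mcoln1), beside 8.09% of all 27025 genes in the table. The longer TCACGTGA, which contains it, was in a window of 4 of the 29 (Ctsa, Ctsd, Gla and Mcoln1), beside 1.12% of all genes. GTAAACA, a FOXO site, or its reverse complement TGTTTAC was in none of the 29, beside 4.05% of all genes. A match is a string of letters and not a measured binding site, and a missing match says only that these letters are not in the window. None of the 9 genes with an E-box passed the test by group; Ctsd and Ctsl passed with the library set as a term, as given below.

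Of the 35 members, all of which passed the filter on low counts, 1 (Cd68) rose, 0 fell and 34 did not pass. That is 2.86% of the members, beside 0.37% of all 15136 genes tested by edgeR (0.317% higher and 0.0529% lower). Because the members were chosen with earlier results of these data known, Cd68 among them, the share called describes the list and cannot serve as support. At an unadjusted p under 0.05 there were 5 members (14.3%), beside 8.39% of all genes. DESeq2 and limma-voom also called Cd68 alone among the members, beside 2% of all genes by DESeq2 (1.15% higher, 0.849% lower) and 0.304% by limma-voom (0.264% higher, 0.0396% lower). The groups did not overlap for 6 members (17.1%), Cd68, Ctsc and Grn higher and Ctsa, Gabarap and Ulk1 lower in Cpd10, beside 14.6% of all genes, a similar share. Most differences were small: 17 of the 35 members had a log2 fold change within 0.2 of 0 and 32 within 0.5.

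The signs were uneven. The log2 fold change was below 0 for 24 of 35 members (68.6%), beside 50.2% of all genes, with a median of -0.13 over the members and -0.0012 over all genes. Library Cpd10 A moved with this: it was the lowest of the 6 libraries for 16 members (45.7%), beside 20.3% of all genes, and it also had the lowest summed level of the B lineage markers, whose part in the result was not tested. Without Cpd10 A the median was -0.065. Within set 1, where Cpd10 A is the only Cpd10 library, the median difference of the members was -0.26, and within set 2 it was -0.016 (log2(CPM + 2)), beside -0.0035 and -0.011 for all genes.

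**Figure D2:**
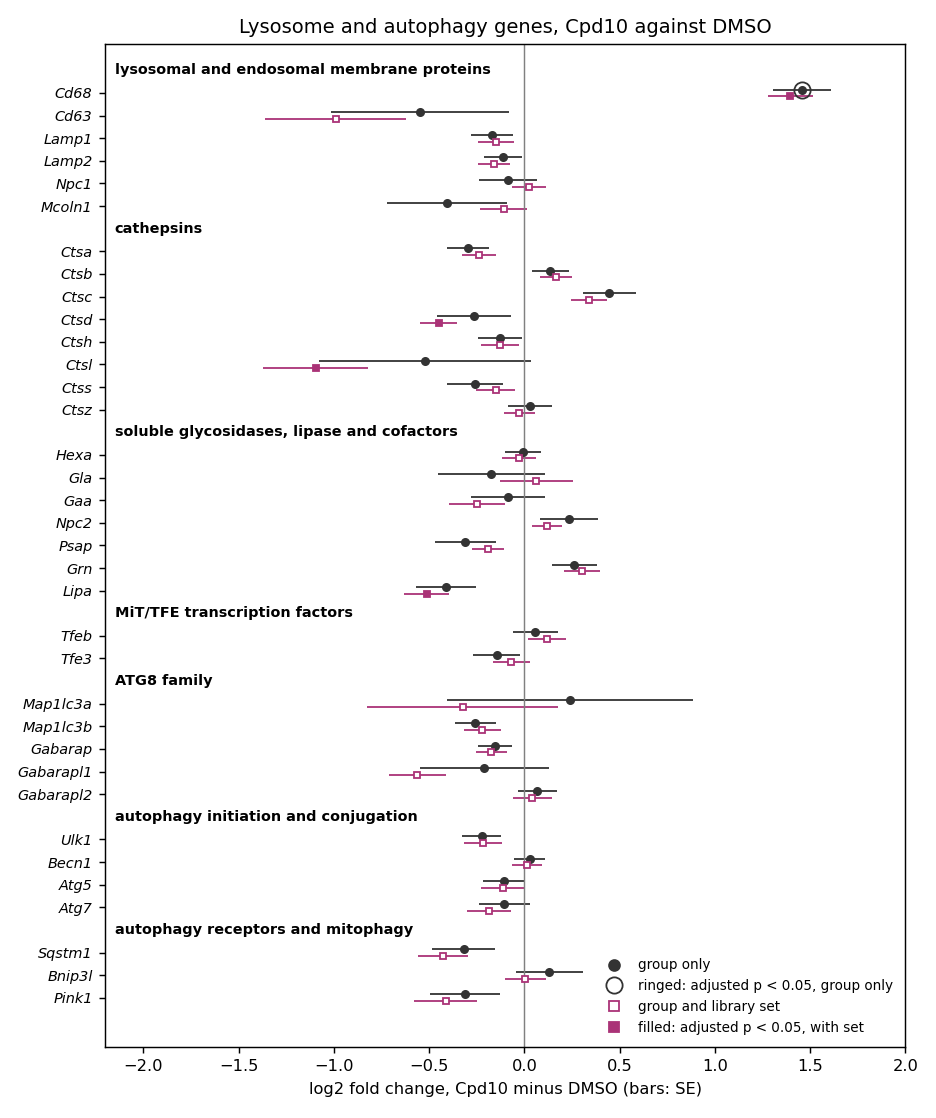
Log2 fold change (Cpd10 minus DMSO, bars show the SE) of the 35 members by role, from the edgeR fit by group (circles, ringed where the adjusted p is under 0.05) and from the fit with the library set as a term (squares, filled where it is under 0.05). Cd68, at 1.46 and 1.40, stands to the right of all other members in both fits, and Ctsd, Ctsl and Lipa pass only with the set term.

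Among the membrane proteins, Cd68 was the only one of 6 that passed. Lamp1, which with LAMP2 makes up much of the lysosomal membrane's protein, was at 354, 295 and 318 CPM in DMSO and 278, 275 and 307 CPM in Cpd10, so the groups overlapped (log2 fold change -0.17, SE 0.11, edgeR's adjusted p = 0.770). Lamp2 had -0.11 (adjusted p = 0.852) and Npc1, the lysosomal cholesterol exporter, -0.086 (edgeR's adjusted p = 0.931). Cd63, a tetraspanin of late endosomes, was at 19.8, 22.8 and 9.29 CPM in DMSO and 5.51, 16.8 and 13.1 CPM in Cpd10. It varied about as widely within each group as between them (-0.55, SE 0.47, edgeR's adjusted p = 0.850). Mcoln1, which encodes the calcium channel TRPML1, was at 57.3, 26.9 and 47.0 CPM in DMSO and 44.2, 29.6 and 25.1 CPM in Cpd10; all 3 libraries of set 2 were below all 3 of set 1, and its log2 fold change went from -0.41 by group to -0.11 with the set term (adjusted p = 0.826 and 0.748).

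None of the 8 cathepsins, the main lysosomal proteases, passed by group, with 2 (Ctsa and Ctsc) at an unadjusted p under 0.05, where 8.39% of all genes lay. Ctsc, which activates serine proteases of granules, was at 102, 108 and 102 CPM in DMSO and 113, 159 and 153 CPM in Cpd10. Its Cpd10 libraries were all higher, B and C more than A (log2 fold change 0.45, SE 0.14, edgeR's adjusted p = 0.376, and 0.0491 without Cpd10 A). Ctsa, the carboxypeptidase that protects other lysosomal enzymes, was at 197, 164 and 208 CPM in DMSO and 155, 155 and 153 CPM in Cpd10 (-0.30, SE 0.11, adjusted p = 0.510).

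Ctss, the protease that cuts the invariant chain in antigen-presenting cells, was at 261, 199 and 293 CPM in DMSO and 218, 215 and 196 CPM in Cpd10. Its log2 fold change of -0.26 was within the spread of the DMSO libraries (SE 0.15, edgeR's adjusted p = 0.736). Ctsz, a carboxypeptidase and the member with the highest level per length, was at 482, 489 and 443 CPM in DMSO and 430, 514 and 500 CPM in Cpd10 (0.030, SE 0.11, edgeR's adjusted p = 0.970). Ctsb and Ctsh differed by 0.14 and -0.13 on the log2 scale (edgeR's adjusted p = 0.806 and 0.859).

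With the library set as a term, 2 cathepsins were lower in Cpd10. Ctsd, an aspartic protease (chromosome 7, 142375911 to 142388038), was at 71.1, 85.9 and 67.7 CPM in DMSO and 44.8, 71.5 and 70.8 CPM in Cpd10. Within each set its Cpd10 libraries were the lower ones, while across the sets the groups overlapped. The log2 fold change was -0.45 with the set term (SE 0.099, edgeR's adjusted p = 0.0232) and -0.26 without it (adjusted p = 0.817). Ctsl, a cysteine protease (chromosome 13, 64359337 to 64370890), was low, at 8.44, 13.8 and 4.62 CPM in DMSO and 2.34, 8.37 and 8.04 CPM in Cpd10 (-1.10 with the set term, SE 0.28, edgeR's adjusted p = 0.0477, and -0.52, adjusted p = 0.884, without it).

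Of the 7 soluble hydrolases and cofactors, none passed by group. Lipa, the acid lipase that frees cholesterol from its esters (chromosome 19, 34492318 to 34527474), was at 41.1, 53.0 and 53.4 CPM in DMSO and 30.6, 41.5 and 38.9 CPM in Cpd10. Only Cpd10 B reached the level of DMSO A, and Cpd10 A was the lowest. The log2 fold change was -0.41 by group (SE 0.16, edgeR's adjusted p = 0.535) and -0.51 with the set term (SE 0.12, adjusted p = 0.0311).

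Grn, which encodes progranulin, a regulator of lysosomal hydrolases, was at 425, 354 and 439 CPM in DMSO and 468, 494 and 498 CPM in Cpd10. All 3 Cpd10 libraries were above all DMSO libraries, but the difference did not pass (0.26, SE 0.12, edgeR's adjusted p = 0.619). Psap, the precursor of the saposins that help degrade sphingolipids, was at 703, 568 and 794 CPM in DMSO and 632, 531 and 502 CPM in Cpd10. It was lower in all libraries of set 2 than in any of set 1 (-0.31 by group and -0.19 with the set term, edgeR's adjusted p = 0.698 and 0.291).

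The other members of this group lay near 0 or varied between libraries. Npc2, the soluble partner of NPC1, had a log2 fold change of 0.24, Hexa, a subunit of beta-hexosaminidase, -0.0071, Gaa, the acid alpha-glucosidase, -0.086 and Gla, the alpha-galactosidase, -0.17 (edgeR's adjusted p = 0.772, 0.990, 0.949 and 0.920).

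With the set term, 4 of the 35 members passed (Cd68 higher; Ctsd, Ctsl and Lipa lower), which is 11.4%, beside 3.96% of all genes (2.32% higher and 1.64% lower). At an unadjusted p under 0.05 there were 14 (40%), beside 16% of all genes. With 1 library left out, this count ran from 5 members (without Cpd10 A, beside 1285 of all genes) to 17 (without DMSO B, beside 2356). The 3 lower calls were lost when any Cpd10 library was left out. Among these fits, only that without Cpd10 A gave clearly smaller log2 fold changes. They were then -0.26 for Ctsd, -0.74 for Ctsl and -0.39 for Lipa (edgeR's adjusted p = 0.612, 0.622 and 0.567). Without Cpd10 B they were -0.48, -1.16 and -0.55, and without Cpd10 C -0.47, -1.13 and -0.51, about as large as with all libraries (edgeR's adjusted p from 0.0634 to 0.164). With the set term, Cd68 was the only member called without Cpd10 A, without Cpd10 B or without Cpd10 C. All 3 lower calls remained without DMSO A (-0.40 for Ctsd, -0.84 for Ctsl and -0.57 for Lipa) or without DMSO C (-0.44, -1.20 and -0.41). Without DMSO B, where only set 1 compares the groups, Ctsd stayed called and Ctsl and Lipa did not, and Sqstm1 and Pink1 were called. In set 1, Cpd10 A is the only Cpd10 library.

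**Figure D3:**
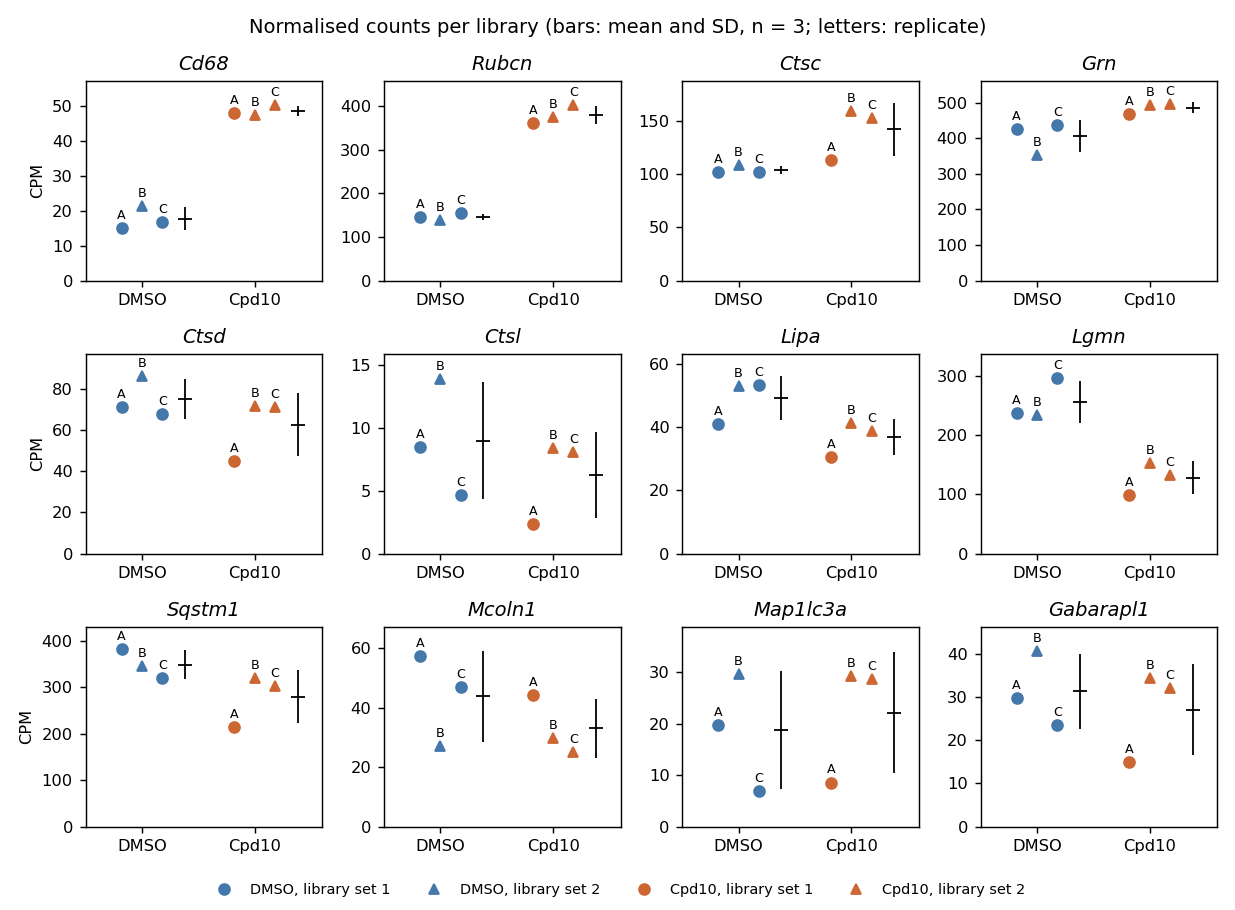
CPM of 10 members and of Rubcn and Lgmn in each library, with letters for the replicate, colour for the group, shape for the library set, and the mean and SD of each group (n = 3); every axis starts at 0. Cd68 and Rubcn, the only genes shown that passed by group in edgeR, separate the groups in both sets. The others except Mcoln1 and Map1lc3a do so too. Each set holds only 3 libraries, however, and some genes were chosen for their differences between the groups. Mcoln1, Map1lc3a and Gabarapl1 separate the sets.

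Neither transcription factor gene of the pathway passed. Tfeb was at 51.7, 44.9 and 58.5 CPM in DMSO and 54.8, 54.0 and 52.6 CPM in Cpd10, with the Cpd10 libraries inside the range of the DMSO libraries (log2 fold change 0.056, SE 0.12, edgeR's adjusted p = 0.945). Tfe3 had -0.15 (SE 0.12, edgeR's adjusted p = 0.850). Their transcript levels say nothing of where in the cell the proteins were, which is how they are mainly controlled.

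None of the 5 ATG8 family genes passed. Gabarap, the most abundant of them per length, was at 221, 215 and 220 CPM in DMSO and 184, 208 and 198 CPM in Cpd10; the groups did not overlap, and the difference was small (-0.15, SE 0.090, edgeR's adjusted p = 0.747). Map1lc3b, the LC3 gene whose product is the usual marker of autophagosomes, was at 101, 85.9 and 99.4 CPM in DMSO and 78.8, 87.1 and 73.6 CPM in Cpd10 (-0.26, SE 0.11, adjusted p = 0.581). Gabarapl2 had 0.068 (SE 0.10, edgeR's adjusted p = 0.916). The sets did not overlap for Map1lc3a, Gabarapl1 and Gabarapl2, and overlapped for Gabarap and Map1lc3b. Map1lc3a was at 29.2, 28.6 and 29.6 CPM in Cpd10 B, Cpd10 C and DMSO B, and at 19.7, 6.86 and 8.55 CPM in DMSO A, DMSO C and Cpd10 A. Gabarapl1 was likewise higher in all of set 2 (32.0 to 40.8 CPM) than in any of set 1 (14.9 to 29.9 CPM), and differed between the groups by -0.56 on the log2 scale with the set term (edgeR's adjusted p = 0.0612). Over all members, the sets did not overlap for 13 (37.1%), beside 35.9% of all genes, a similar share.

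The 4 genes of autophagy initiation and conjugation did not pass, and varied little. Becn1, a subunit of the class III phosphatidylinositol 3-kinase, was at 109, 113 and 111 CPM in DMSO and 110, 111 and 118 CPM in Cpd10 (0.029, SE 0.082, edgeR's adjusted p = 0.958). Ulk1, the kinase that starts autophagy, was at 57.4, 50.6 and 55.0 CPM in DMSO and 44.3, 49.7 and 45.4 CPM in Cpd10; the groups did not overlap, by a narrow margin (-0.22, SE 0.10, adjusted p = 0.633). Atg5 and Atg7, which act in the conjugation of ATG8 proteins to lipid, had -0.11 each (edgeR's adjusted p = 0.880 and 0.906).

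Among the receptors and mitophagy genes, Sqstm1, which encodes the autophagy receptor p62, was at 382, 345 and 319 CPM in DMSO and 215, 321 and 303 CPM in Cpd10. Cpd10 A was far below the other libraries, and Cpd10 B lay within the DMSO range (-0.32, SE 0.16, edgeR's adjusted p = 0.697). Pink1, the kinase that marks damaged mitochondria, had the same shape, at 37.9, 34.7 and 40.3 CPM in DMSO and 22.3, 35.5 and 33.2 CPM in Cpd10 (-0.31, SE 0.18, adjusted p = 0.743). Bnip3l, a mitophagy receptor, had 0.13 (SE 0.18, edgeR's adjusted p = 0.911).

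Levels were compared between genes only per length, as TPM (counts scaled by length and by library) over the union of each gene's exons. In DMSO the highest were Ctsz (952 ± 112 TPM), Psap (727 ± 119 TPM) and Ctss (536 ± 103 TPM; SD, n = 3). Lamp1, Gabarap, Grn and Sqstm1 followed, at 351 ± 57.3, 345 ± 29.1, 339 ± 47.5 and 303 ± 51.6 TPM, and did not differ beyond their spread. Cd68 was at 40.8 ± 6.97 TPM in DMSO and 112 ± 6.24 TPM in Cpd10, where it reached the level of Ctsb (112 ± 10.7 TPM). Ctsl was the lowest, at 4.04 ± 2.08 TPM in DMSO.

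**Figure D4:**
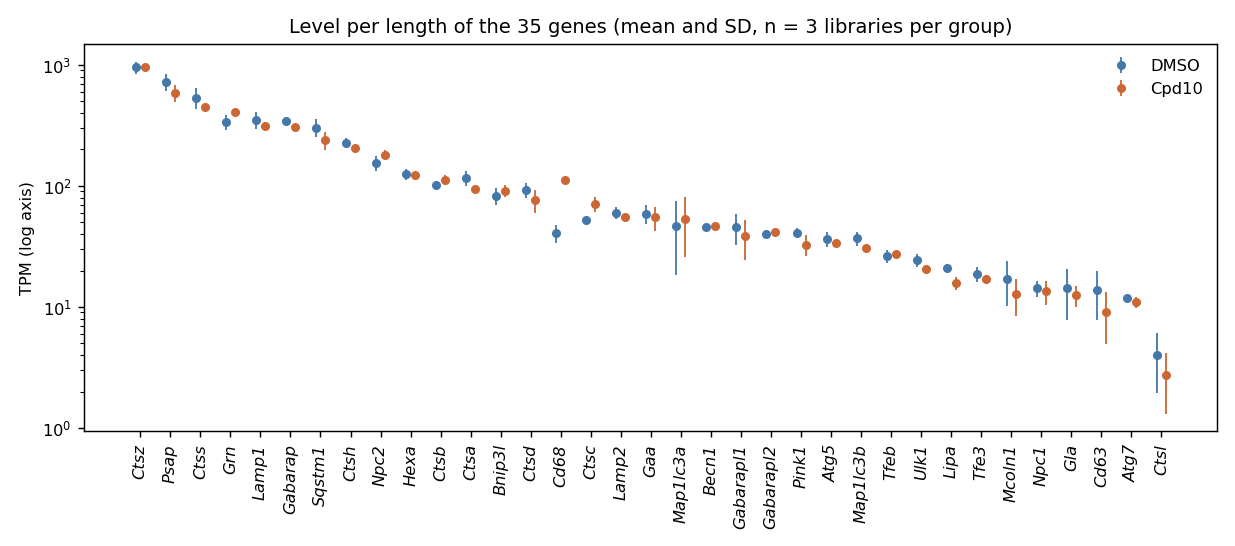
Level per length (TPM, logarithmic axis) of the 35 members, ordered by their mean over all libraries, in DMSO and Cpd10 (mean and SD, n = 3). Cd68 is the member whose groups stand furthest apart, at 40.8 and 112 TPM, and the levels run from Ctsz down to Ctsl.

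Exons of 12 members overlap exons of a gene on the opposite strand, and for Ctsa, Ctsb, Ctsz, Lamp1, Npc1 and Sqstm1 that gene had at least 1000 reads in all; the sources used here do not state whether the counting used strand, so these values are less certain. Cd68, Ctsd, Lipa and Ctsc have no such partner. Ctsd and Ctsl each share exons with an annotated gene or pseudogene on their own strand that had 0 reads, so reads could have been split or dropped there.

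Other genes of the pathway were taken from 10 lists, with 177 genes outside the members, of which 169 were tested. By edgeR, 1 rose, 0 fell and 168 did not pass, beside the 0.37% of all genes given above. The gene that rose was Rubcn, which encodes Rubicon, an inhibitor of autophagosome maturation that also serves LC3-associated phagocytosis. It was at 145, 140 and 154 CPM in DMSO and 363, 376 and 403 CPM in Cpd10, with no overlap and little spread within each group. The log2 fold change of Rubcn (chromosome 16, 32821703 to 32877766) was 1.38 (SE 0.096, edgeR's adjusted p = 0.00667), and 1.38 with the set term (SE 0.086, adjusted p = 1.96e-06). Leaving out DMSO A, DMSO C, Cpd10 B or Cpd10 C ended its call by group alone, with edgeR's adjusted p of 0.0594, 0.0660, 0.0711 and 0.0986.

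Lgmn, which encodes the asparagine endopeptidase legumain, had the largest fold change of the 37 other lysosomal hydrolases, in either direction. It was at 237, 233 and 297 CPM in DMSO and 99.0, 153 and 133 CPM in Cpd10, with all Cpd10 libraries below all DMSO libraries. Its log2 fold change was -0.996 (SE 0.18, edgeR's adjusted p = 0.0859), and -1.07 with the set term (adjusted p = 0.0499); DESeq2 called it lower (adjusted p = 6.95e-05) and limma-voom did not. With the set term, Neu1, a sialidase, and Igf2r, a receptor that carries mannose 6-phosphate-tagged hydrolases to the lysosome, were also lower (-0.49 and -0.33, edgeR's adjusted p = 0.0277 and 0.0380, against 0.678 and 0.515 without it). These calls were lost without Cpd10 A (edgeR's adjusted p = 0.0744 for Lgmn, 0.655 for Neu1 and 0.300 for Igf2r) or without Cpd10 C, that of Lgmn also without DMSO A, and that of Igf2r also without Cpd10 B or DMSO B. In all, 3 of the 169 were lower and 1 higher with the set term, beside 3.96% of all genes.

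By list, none of 17 tested V-ATPase subunits, 37 other hydrolases, 24 other lysosomal membrane proteins and transporters or 25 genes of mTORC1 and TFEB signalling passed, with medians of -0.078, -0.14, -0.12 and -0.087. Of them, 1, 5, 4 and 3 had p under 0.05 before adjustment, and over all 169 pathway genes 19 did (11.2%), beside 8.39% of all genes. Examples with the smallest p were Atp6ap2, an accessory V-ATPase subunit (-0.34, edgeR's adjusted p = 0.554), Cln3, a lysosomal membrane protein (-0.40, 0.441), the sialic acid exporter Slc17a5 and the cystine exporter Ctns (-0.52 and -0.61, adjusted p = 0.325 and 0.398), and Fnip1 and Flcn, partners in the signalling of amino acids to TFEB (-0.34 and -0.36, edgeR's adjusted p = 0.509 and 0.529). The 23 genes of the 169 whose Cpd10 libraries were all below their DMSO libraries (13.6%, beside 7.32% of all genes) outnumbered the 9 the other way (5.33%, beside 7.31%).

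None of 9 mannose 6-phosphate sorting genes, 9 other conjugation genes, 15 other receptors and mitophagy genes or 13 fusion genes passed by group, and of 19 other initiation genes only Rubcn did. The receptors were the list with the highest median (0.13), with Retreg1, a receptor for autophagy of the endoplasmic reticulum, at 0.61 and Optn, a receptor for mitochondria and bacteria, at 0.33 (edgeR's adjusted p = 0.373 and 0.554). A list of genes linked to FOXO factors in muscle held mostly autophagy genes, with Fbxo32 and Trim63, which encode ubiquitin ligases, and Sesn3, which encodes a sestrin. All its genes but Fbxo32 and Trim63 are members or stand in the other pathway lists, so this list mostly recounts genes given above. Of its 13 tested genes 0 passed by edgeR, DESeq2 or limma-voom, beside 0.37%, 2% and 0.304% of all genes, and 2 had an unadjusted p under 0.05 by edgeR (Ulk2 and Map1lc3b), beside 8.39% of all genes. Ulk2, a kinase related to ULK1, was at 41.8, 37.4 and 43.5 CPM in DMSO and 35.7, 30.7 and 28.3 CPM in Cpd10 (-0.37, SE 0.13, edgeR's adjusted p = 0.457), and the list's median was -0.10.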

How the data were processed

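The authors deposited raw read counts per Ensembl gene, 1 column per library; tools named in the submitters' processing notes are STAR (2.7.10a), featureCounts (2.0.6) and DESeq2, with the builds GRCm38 and mm10, without their roles. Rows were matched to GENCODE M21 (54809 of 54838). The comparison used edgeR 4.0.16 in R 4.3.3: TMM normalisation, filterByExpr, robust quasi-likelihood fit on the group, and Benjamini-Hochberg adjustment over all 15136 tested genes, with an adjusted p under 0.05 called. SE is the log2 fold change over the square root of F. CPM uses normalised library sizes; differences within sets use log2(CPM + 2). The library set is the division of the 6 libraries, 3 on each side, for which most genes (9) had no more than 3 counts on one side and at least 50 on the other. Alternatives were DESeq2 1.42.0, limma-voom 3.58.1, DESeq2 size factors, no filter, a replicate block, the set term and leaving out each library; the last with the set term was chosen after seeing the data. The procedure was tested on simulated data. Depth makes counting error small at 10 CPM; the spread between libraries sets the precision.

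The members and lists were chosen with earlier results of these data known. Values per library are given for Cd68, members called without or with the set term, the 3 largest rises and falls at a mean of 10 CPM or more, and the most abundant member per length of each role; Ctsa, Ctss, Map1lc3a, Map1lc3b, Ulk1, Pink1, Gabarapl1, Adgre1 and Cd72 were added after their values were seen. From each pathway list up to 3 genes with the smallest p and those called were eligible. Of the list symbols, Tmem55b was not found under that name. Promoter sequences are RefSeq's (GRCm38.p6).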

Additional observations from a re-analysis of the deposited data

How the results depend on the processing

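Over all genes, 56 were called; DESeq2 called 356, edgeR without the filter 194 and edgeR with the library set 599, and with 1 library left out the count ran from 0 (edgeR, leaving out Cpd10 C; 843 genes had an unadjusted p under 0.05), 1, 1, 5, 77 and 100 by group alone to 130, 225, 343, 437, 622 and 907 with the set term (Cpd10 A, C and B, then DMSO B, C and A left out), the latter chosen after seeing the data. Of the members, 1 was called, 4 with the set term, and 0 (edgeR, 1 to 5 members with an unadjusted p under 0.05) to 7 with 1 library left out, with 2 (Cd68 and Ctsc) without Cpd10 A by group alone. The members' median log2 fold change of -0.13 ran from -0.259 (without DMSO B, with the set term) to -0.00254 (without Cpd10 A, with the set term). Each of these fits compares the groups within only 1 of the sets. With the replicate letter as a replicate block, edgeR called 49 genes and 1 member (Cd68). Same-lettered libraries did not deviate together in every pair (r = 0.309, 0.432 and -0.315 for A, B and C), not every library correlated best with its own letter, and the labels give the letters no meaning. At these sizes, differences within 0.2, as seen for 17 of the 35 members, could not be told from the spread between libraries.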
